A study of Mus musculus with 4 samples.

Results

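The semaphorins are a large family of guidance ligands, and the plexins and neuropilins are their receptors. The genes described here are the 31 protein-coding genes of the GENCODE mouse M21 annotation whose symbol starts with Sema and a digit or with Plxn, or is Nrp1 or Nrp2. They make up 0.142% of the 21853 protein-coding genes examined. The rule uses names and no measured value, but it was chosen with earlier results of these data known. The members comprise 7 secreted class 3 semaphorins, 13 transmembrane or membrane-anchored semaphorins of classes 4 to 7, 9 plexins and 2 neuropilins. Histone H3 trimethylated at lysine 4 (H3K4me3) was measured by chromatin immunoprecipitation and sequencing (ChIP-seq) in hippocampus tissue, which the labels call a layer of hippocampus without saying which, of adult male B6CASTF1/J mice aged 2 months. The strain is a first-generation hybrid between the laboratory strain C57BL/6J and the wild-derived CAST/EiJ. Tissue of 7 samples went into each of 2 pools, called D and C and labelled as biological replicates 1 and 2, and each pool was sequenced as 2 technical replicate libraries. The technical replicates of a pool share 1 peak list, so the spread given below is that between 2 pools. No second tissue, genotype or treatment was compared, and each pool is tissue rather than sorted cells.

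H3K4me3 is deposited on nucleosomes around the start sites of genes that are transcribed or ready to be transcribed, above all where CpG dinucleotides are dense. Class 3 semaphorins are secreted, and all but Sema3e, which can bind Plxnd1 directly, typically bind a neuropilin, which forms a holoreceptor with a plexin of the A family, and the plexin carries the signal into the cell. Semaphorins of the other vertebrate classes stay attached to the membrane and mostly bind plexins directly. Activated plexins act on small GTPases and on collapsin response mediator proteins and so reshape the actin and microtubule cytoskeleton. In the developing hippocampus this system steers axons and sorts mossy fibre layers, and in the adult it acts on dendritic spines and synapses.

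Nearly all members carried the mark at a promoter. A gene was counted as marked when a peak lay within 1 kb of any start of a protein-coding transcript. In the replicated list, 29 of 31 members were marked (93.5%), where 64.8% of all protein-coding genes were. The list of pool D alone also marked 29 members (63.7% of all genes) and so did the list of pool C alone (66.3% of all genes). The list called on both pools together marked 30, beside 65.6% of all genes. The marked genes were all 13 class 4 to 7 semaphorins, all 9 plexins, both neuropilins and 5 of 7 class 3 semaphorins. No member was marked in 1 pool alone.

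The 2 members without a promoter peak were Sema3b and Sema3g, both secreted class 3 semaphorins. Sema3b lies on chromosome 9 (minus strand) and has 10 annotated coding start sites, none of them within 1 kb of a peak in any of the 4 lists. The nearest replicated peak to Sema3b lay 2853 bp upstream of its first start site, spanned 1343 bp (mm10, chr9:107612082-107613424) and met no window of a coding start site. That upstream peak was present in both pools, with a width of 1155 bp for pool D and 1383 bp for pool C. Sema3g lies on chromosome 14 (plus strand) with 1 start site, and its nearest replicated peak was 10287 bp away at the promoters of Nisch and Tnnc1. Of the 4 lists, only the one on both pools together held a peak of 227 bp at Sema3g, 93 bp from its start site. That peak was weak, with a deposited −log10 q of 1.38 and a signal value of 2.69.

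The sequence before the start site held fewer CpG in both unmarked members than in a pair of broadly marked ones. The 250 bases upstream of the start site are given for Sema3b and Sema3g, and for Plxna4 and Nrp2, the broadest members whose window meets no annotated exon. Windows of Sema7a and Nrp1, which were broader, overlap an annotated exon. The sequences are from the reference genome GRCm38 (the build named mm10), which is not that of the hybrid mice, and every CpG is in capitals.
Sema3b, no peak, chr9:107609230-107609479, minus strand: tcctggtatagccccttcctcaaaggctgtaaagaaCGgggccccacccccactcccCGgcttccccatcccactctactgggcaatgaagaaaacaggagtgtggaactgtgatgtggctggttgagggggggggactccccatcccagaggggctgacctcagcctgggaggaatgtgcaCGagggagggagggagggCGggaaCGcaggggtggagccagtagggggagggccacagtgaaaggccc
Sema3g, no peak, chr14:31217610-31217859, plus strand: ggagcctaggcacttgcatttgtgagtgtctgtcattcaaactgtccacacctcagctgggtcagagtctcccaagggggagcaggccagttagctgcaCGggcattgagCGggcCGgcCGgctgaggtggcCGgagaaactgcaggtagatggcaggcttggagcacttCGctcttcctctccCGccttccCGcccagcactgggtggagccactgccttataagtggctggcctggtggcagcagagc
Plxna4, domain of 6424 bp, chr6:32588193-32588442, minus strand: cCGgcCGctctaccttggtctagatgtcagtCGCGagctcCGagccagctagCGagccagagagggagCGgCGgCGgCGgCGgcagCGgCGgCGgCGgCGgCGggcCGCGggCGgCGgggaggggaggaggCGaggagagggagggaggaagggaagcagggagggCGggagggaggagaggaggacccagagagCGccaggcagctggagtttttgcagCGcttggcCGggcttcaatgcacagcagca
Nrp2, domain of 6132 bp, chr1:62703035-62703284, plus strand: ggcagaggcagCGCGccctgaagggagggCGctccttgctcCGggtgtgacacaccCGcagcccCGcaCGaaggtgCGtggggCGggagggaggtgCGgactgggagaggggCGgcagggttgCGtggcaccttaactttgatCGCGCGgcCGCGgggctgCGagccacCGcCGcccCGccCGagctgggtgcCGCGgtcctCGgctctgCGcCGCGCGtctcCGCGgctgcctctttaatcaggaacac
The Sema3b window held 5 CpG and the Sema3g window 8, against 26 for Plxna4 and 31 for Nrp2. GC content was 63.6% for Sema3b and 62.0% for Sema3g against 72.4% for Plxna4 and 73.2% for Nrp2. Some marked members had fewer CpG in the same 250 bases than either unmarked one, with 2 at Sema3f, 3 at Plxnb3 and 4 at Sema4f.

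Across all start sites of the members, the mark followed CpG density in nearly the same way as in the rest of the genome. CpG density was taken as the observed/expected ratio in the 500 bp on either side of a start site. The 31 members have 89 coding start sites, of which 56 (62.9%) lay within 1 kb of a replicated peak, beside 61.9% of the 54361 start sites of all genes. All 44 member sites with a ratio of at least 0.6 were marked, where 97.9% of all such sites were. Of the 39 member sites under 0.4, 7 were marked (17.9%), where 18.1% of all such sites were. The median ratio was 0.701 at marked and 0.188 at unmarked member sites, and 0.714 and 0.197 over all genes. Start sites of 1 gene share sequence and peaks, so these counts are a description of the sites and not of independent promoters.

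The 7 marked sites of low CpG density belonged to Plxnb1, Plxnb3, Sema4a and Sema6b. Plxnb3, a receptor for Sema5a, has 1 coding start site with a ratio of 0.099 and carried the narrowest and weakest domain of any member. At Sema4a, a ligand with known roles in immune cells and the eye, all 4 marked sites had ratios from 0.181 to 0.233 and the domain spanned 3721 bp. That domain joined 3 peaks. The broadest Sema4a domain was 1509 bp for pool D, 4166 bp for pool C and 1384 bp with no gaps closed. In pool D the start site shown here had a separate domain of 684 bp. The Sema4a sequence is shown because few CpG lie before this joined domain, a choice made after its values were seen.
Sema4a, domain of 3721 bp, chr3:88461183-88461432, minus strand: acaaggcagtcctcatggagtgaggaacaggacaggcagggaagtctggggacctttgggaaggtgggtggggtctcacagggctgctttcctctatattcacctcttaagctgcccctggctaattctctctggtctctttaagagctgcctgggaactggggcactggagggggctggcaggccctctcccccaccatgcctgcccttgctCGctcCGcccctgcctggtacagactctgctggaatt
This Sema4a window held 2 CpG, fewer than either unmarked member. In Plxnb1 the low-density site lay 1321 bp downstream of a site with a ratio of 0.869, inside the same domain.

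Among short promoter motifs, the share of members was higher than that of all marked genes for GC boxes and lower for CCAAT and TATA boxes. The letters were searched on both strands in the 250 bases before the first coding start site of each gene. GGGCGG, the core of a GC box, was found in 25 of 31 members (80.6%), beside 39.9% of all genes and 56.0% of all marked genes. CCAAT was found in 4 members (12.9%), beside 36.1% of all genes and 35.3% of all marked genes. TATAAA was found in 0 members, beside 11.5% of all genes but only 6.42% of all marked genes, and 29 of the 31 members are marked. The median number of CpG in the window was 16 for the members, 8 for all genes and 14 for all marked genes. Both unmarked members hold a GGGCGG, while Plxnb3, Sema3c, Sema3f, Sema4f and Sema5b, all marked, do not. Sema3a also lacks it, but its first coding start site, before which the letters were searched, is itself unmarked. A match of letters shows neither that a factor binds there nor that it does not.

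**Figure D1:**
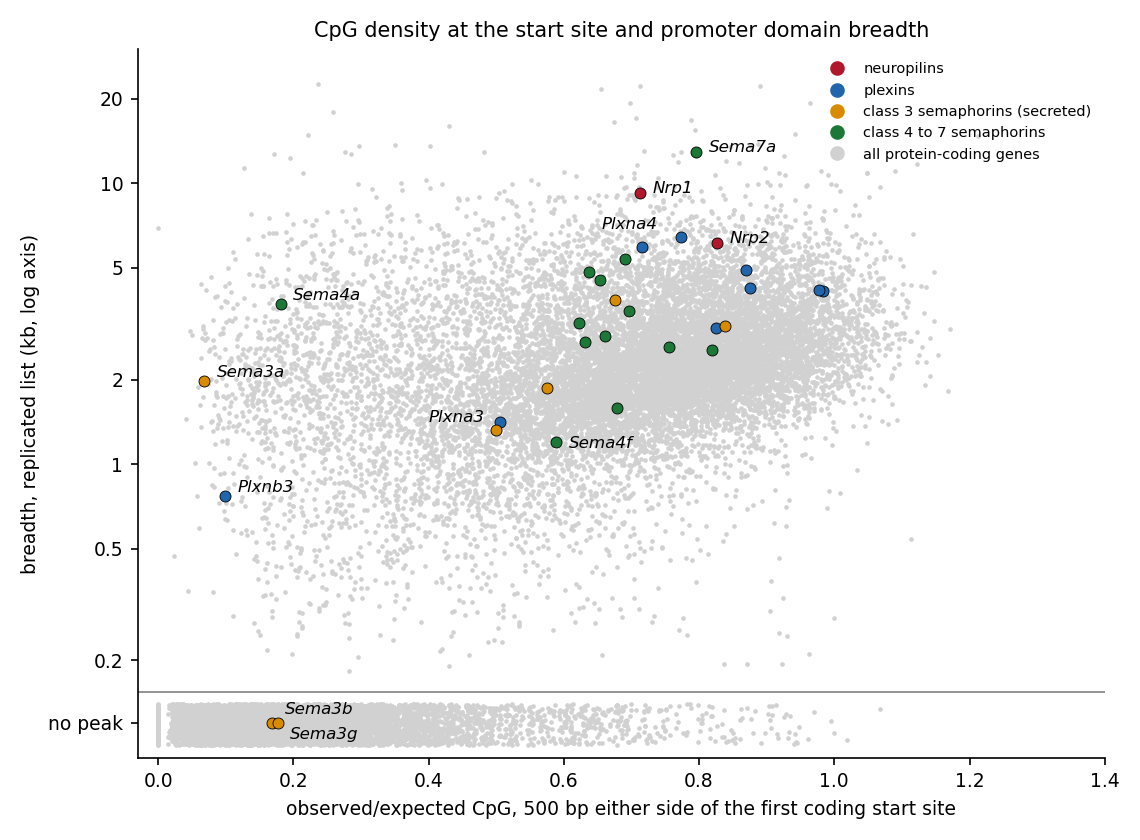
Observed/expected CpG around the first coding start site of each gene (horizontal) against the breadth of its broadest promoter domain in the replicated list (vertical, kb, log axis), with genes without a peak in the strip at the bottom. Members are coloured by class over all protein-coding genes in grey; Sema3b and Sema3g lie in the strip, Sema4a and Plxnb3 are marked at low CpG density, and Sema3a is plotted at an upstream start site that is itself unmarked.

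The marked members carried broader domains than most marked genes. A domain joins peaks with gaps of up to 1 kb, its breadth is its length in bp, and each gene is represented by its broadest promoter domain. The median breadth of the 29 marked members was 3519 bp (quartiles 2556 and 4845 bp), against 2234 bp (1632 and 3134 bp) over the 14169 marked genes, a ratio of 1.58. Of the 29, 22 were broader than the median of all marked genes, 16 were in the broadest 25% and 5 were below the lower quartile. Domains of 5 kb or more were found at 6 members (20.7%), where 6.94% of all marked genes had one. In pool D alone there were 5 such members (17.2%, beside 4.74% of marked genes) and in pool C 8 (27.6%, beside 9.42%). By class, the median domain was 1982 bp for class 3, 3191 bp for classes 4 to 7, 4156 bp for plexins and 7664.5 bp for neuropilins. Single genes did not follow that order, since Sema7a was the broadest member and Plxnb3 the narrowest.

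For the members as a group, the greater breadth was not matched by a higher median rank of the peaks. The signal value that the authors deposited for each peak is the enrichment on the scale of their peak caller, and was used only as a rank within a list. The strongest promoter peak of the marked members had a median rank at percentile 69.7 of replicated peaks, beside 75.7 for all marked genes. The same order held in pool D (65.1 for members, 73.8 for all) and in pool C (76.3 and 80.2). Sema4d, the ligand of Plxnb1, had a peak at percentile 87.3 with a domain of only 2716 bp. Plxnd1 had a domain of 4253 bp with its strongest peak at percentile 55.6. Among the 6 members of 5 kb or more, the percentile was 94.2 for Sema7a, 92.6 for Plxna2, 87.6 for Plxna4 and 86.4 for Nrp1. It was 74.8 for Nrp2 and 64.7 for Sema6a.

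**Figure D2:**
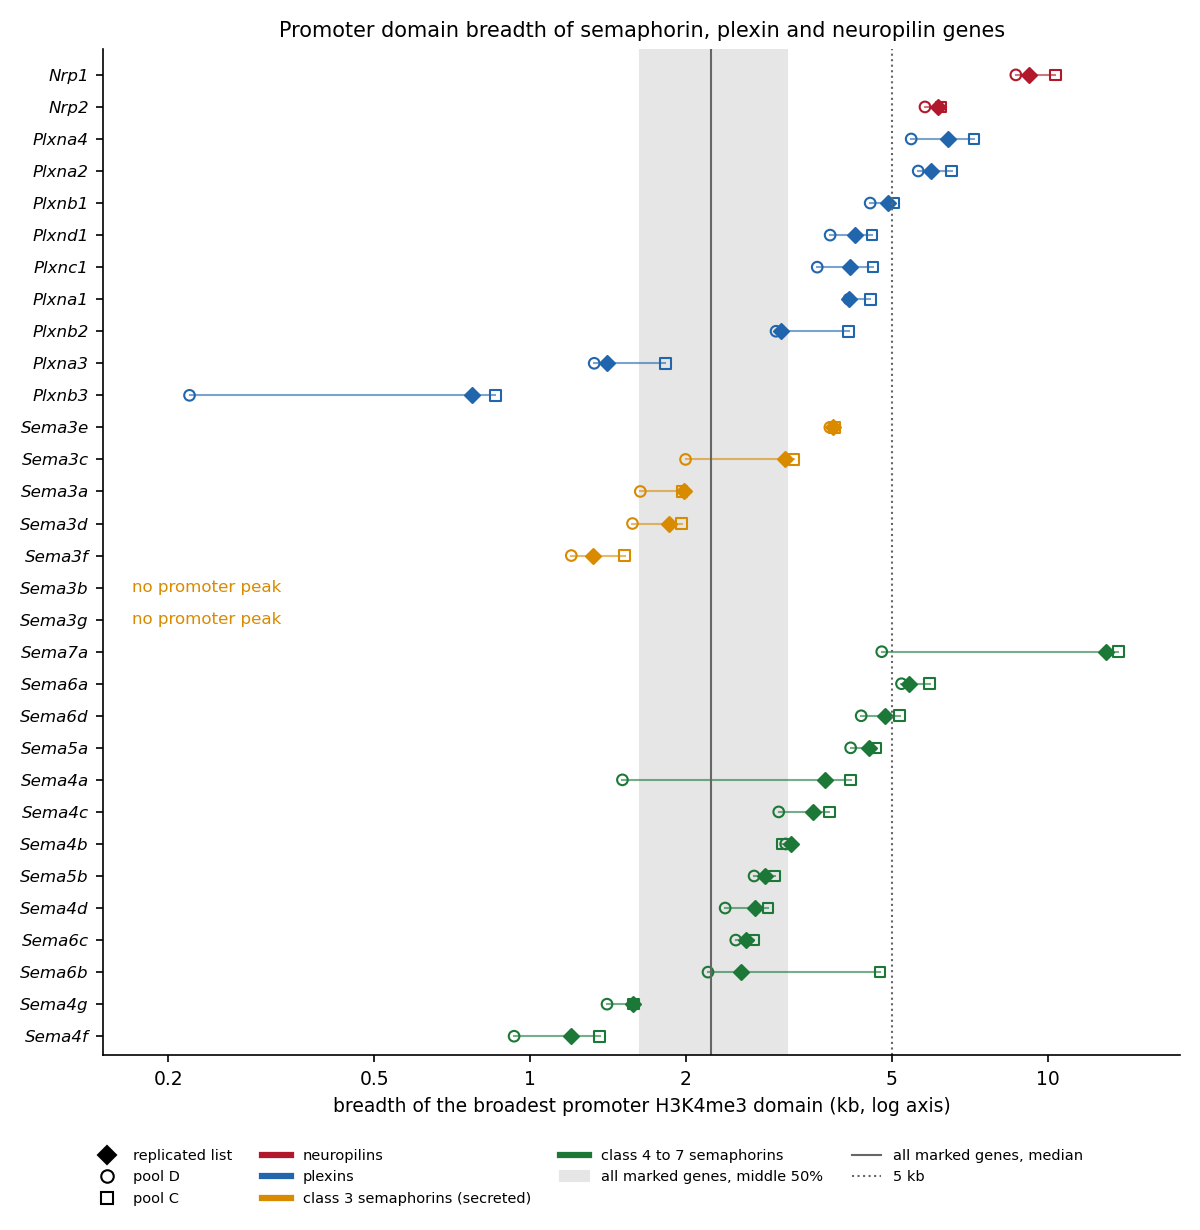
Breadth of the broadest promoter domain (kb, log axis) for each of the 31 members, by class, in the replicated list (filled diamonds), pool D (open circles) and pool C (open squares), with a line joining the pools. The grey band and line give the quartiles and median of all 14169 marked genes; both neuropilins lie above 5 kb in every list, and Sema7a, Sema4a, Sema6b, Sema3c and Plxnb3 show the longest lines between the pools.

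Both neuropilins carried domains of over 5 kb in each list. Nrp1 is the co-receptor through which Sema3a acts and also binds vascular endothelial growth factor, and its domain spanned 9197 bp (mm10, chr8:128356491-128365687). The Nrp1 domain measured 8682 bp for pool D and 10347 bp for pool C (9514.5 ± 1177 bp, SD, n = 2). In the replicated list it stood at percentile 99.4 of marked genes by breadth. It ran from 2793 bp before the start site to 6403 bp after it, as 1 unbroken peak. Nrp2, the preferred co-receptor of Sema3f, had a domain of 6132 bp (chr1:62702549-62708680). Nrp2 measured 5796 bp for pool D and 6225 bp for pool C (6010.5 ± 303 bp, SD, n = 2), so the pools of Nrp1 and Nrp2 did not overlap.

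The A plexins, the signalling partners of the neuropilins, ranged from broad to narrow. Plxna4, which serves Sema3a and the class 6 semaphorins, had 6424 bp (5451 bp for pool D and 7208 bp for pool C). Plxna2, a receptor for Sema6a in the hippocampus, had 5944 bp (5624 and 6530 bp) with its strongest peak at percentile 92.6 of signal. The pool values of Plxna4 and Plxna2 overlapped. Plxna1, a receptor for Sema6d, had 4136 bp (4130 and 4544 bp). Plxna3, on the X chromosome, had 1408 bp (1331 and 1826 bp) and was narrower in both pools than the other A plexins.

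Among the remaining plexins, 4 had domains broader than 3 kb and 1 was marked only weakly. Plxnb1, the Sema4d receptor, had 4917 bp (4542 bp for pool D and 5042 bp for pool C), just under the 5 kb bound. Plxnd1, which binds Sema3e without a neuropilin, had 4253 bp (3801 and 4579 bp). Plxnc1, the plexin that binds Sema7a, had 4156 bp (3589 and 4599 bp). The pool ranges of these 3 genes overlapped one another. Plxnb2, a receptor for class 4 semaphorins, had 3052 bp (2988 and 4126 bp). Plxnb3 had 772 bp in the replicated list, 220 bp for pool D and 857 bp for pool C, with a signal at percentile 12.2 and a −log10 q of 3.67. It was the 1 member lost when peaks of a −log10 q below 5 were dropped.

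The secreted class 3 semaphorins had the narrowest domains as a class, and none reached 5 kb. Sema3e, the ligand of Plxnd1, was the broadest at 3853 bp (3796 bp for pool D and 3880 bp for pool C), with an SD of only 59.4 bp between pools. Sema3c had 3104 bp, with 1998 bp for pool D and 3235 bp for pool C. Sema3a, a repellent of cortical and hippocampal axons, had 1982 bp (1634 and 1966 bp). Sema3d had 1859 bp (1578 and 1963 bp), and its pools overlapped those of Sema3a. Sema3f, which repels hippocampal axons and limits spines through Nrp2, had 1325 bp (1202 and 1524 bp), below the lower quartile of all marked genes. The co-receptors Nrp1 and Nrp2 thus had wider domains than every class 3 ligand in both pools.

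The mark at Sema3a lay far inside the annotated gene. The 5′ end of the Sema3a gene is that of noncoding transcripts, 273274 bp upstream of its first marked coding start site. Of 5 coding start sites 4 lay in the domain (chr5:13398665-13400646), and the remaining one, which has the low CpG ratio of 0.0684, had no peak within 1 kb. Taking only the 5′ end of each gene as its promoter left Sema3a without a peak.

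All 13 semaphorins of classes 4 to 7 were marked, with breadths from 1201 to 12946 bp. Sema7a, which is tethered by a glycolipid anchor and binds Plxnc1 and integrins, had the broadest domain of any member (12946 bp, chr9:57938625-57951570) and ranked 24 of 14169 marked genes. It measured 4782 bp for pool D and 13689 bp for pool C (9235.5 ± 6298 bp, SD, n = 2), the largest SD of any member. The Sema7a domain joined 7 peaks, of which the first spanned 4891 bp at percentile 94.2 of signal. The other 6 were weak, with −log10 q from 1.18 to 5.68. In the list on both pools together the domain was 7849 bp, and it was 4891 bp with peaks of a −log10 q below 5 dropped or with no gaps closed. Pool D held peaks of 433 and 702 bp in the same downstream stretch, too far from the promoter peak to be joined.

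Of the class 6 semaphorins, which signal through the A plexins, 2 were among the broadest members. Sema6a had 5390 bp (5221 bp for pool D and 5916 bp for pool C) and was the member just inside the 5 kb bound. Sema6d had 4845 bp (4364 and 5179 bp) and fell just outside it, as Plxnb1 did. Sema6c had 2617 bp (2498 and 2710 bp) and Sema6b 2556 bp (2208 and 4742 bp). In class 5, which carries thrombospondin repeats, Sema5a had 4526 bp (4164 and 4663 bp) and Sema5b 2850 bp (2710 and 2969 bp).

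The class 4 semaphorins ran from above the upper quartile of marked genes (Sema4a, Sema4b and Sema4c, at percentiles 83.4, 76.1 and 81.0) to below the lower quartile. Sema4a had 3721 bp (1509 bp for pool D and 4166 bp for pool C), Sema4c 3519 bp (3024 and 3790 bp) and Sema4b 3191 bp (3119 and 3075 bp). Sema4b and Sema4c, which bind the postsynaptic scaffold PSD-95, had overlapping pool ranges. Sema4d had 2716 bp (2383 and 2885 bp). Sema4g, at 1585 bp (1409 and 1586 bp), and Sema4f, at 1201 bp (932 and 1363 bp), were below the lower quartile of all marked genes. The 5 members below that quartile were Plxna3, Plxnb3, Sema3f, Sema4f and Sema4g.

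The domains reached mainly into the gene. From the 5′-most marked start site, the members' domains extended a median of 597 bp upstream and 2945 bp downstream, and over all marked genes 640 bp and 1428 bp. The downstream share of the domain had a median of 84.8% for the members and 70.1% for all marked genes. All 29 marked members reached farther downstream than upstream, beside 84.9% of all marked genes. The members are long genes, with a median length of 40195 bp against 17380 bp over all genes, unmarked ones included on both sides. The part that gene length has in the difference in shape was not tested. Nrp1 and Sema6a reached farthest upstream, by 2793 and 2295 bp, while Sema3a and Sema3f reached only 23 and 8 bp upstream. The Plxnb3 domain started 34 bp after its start site. The broadest domain held a start site of another protein-coding gene at 0 of the 29 marked members, beside 19.0% of all marked genes. Start sites of noncoding genes, pseudogenes included, lay in 5 of the 29 broadest member domains (17.2%), close to the 14.8% of all marked genes: the microRNA gene Mir1903 at Nrp1, the antisense gene Gm7628 at Plxnb1, Gm43519 at Sema3e, D430040D24Rik at Sema4c and Snhg18 at Sema5a.

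**Figure D3:**
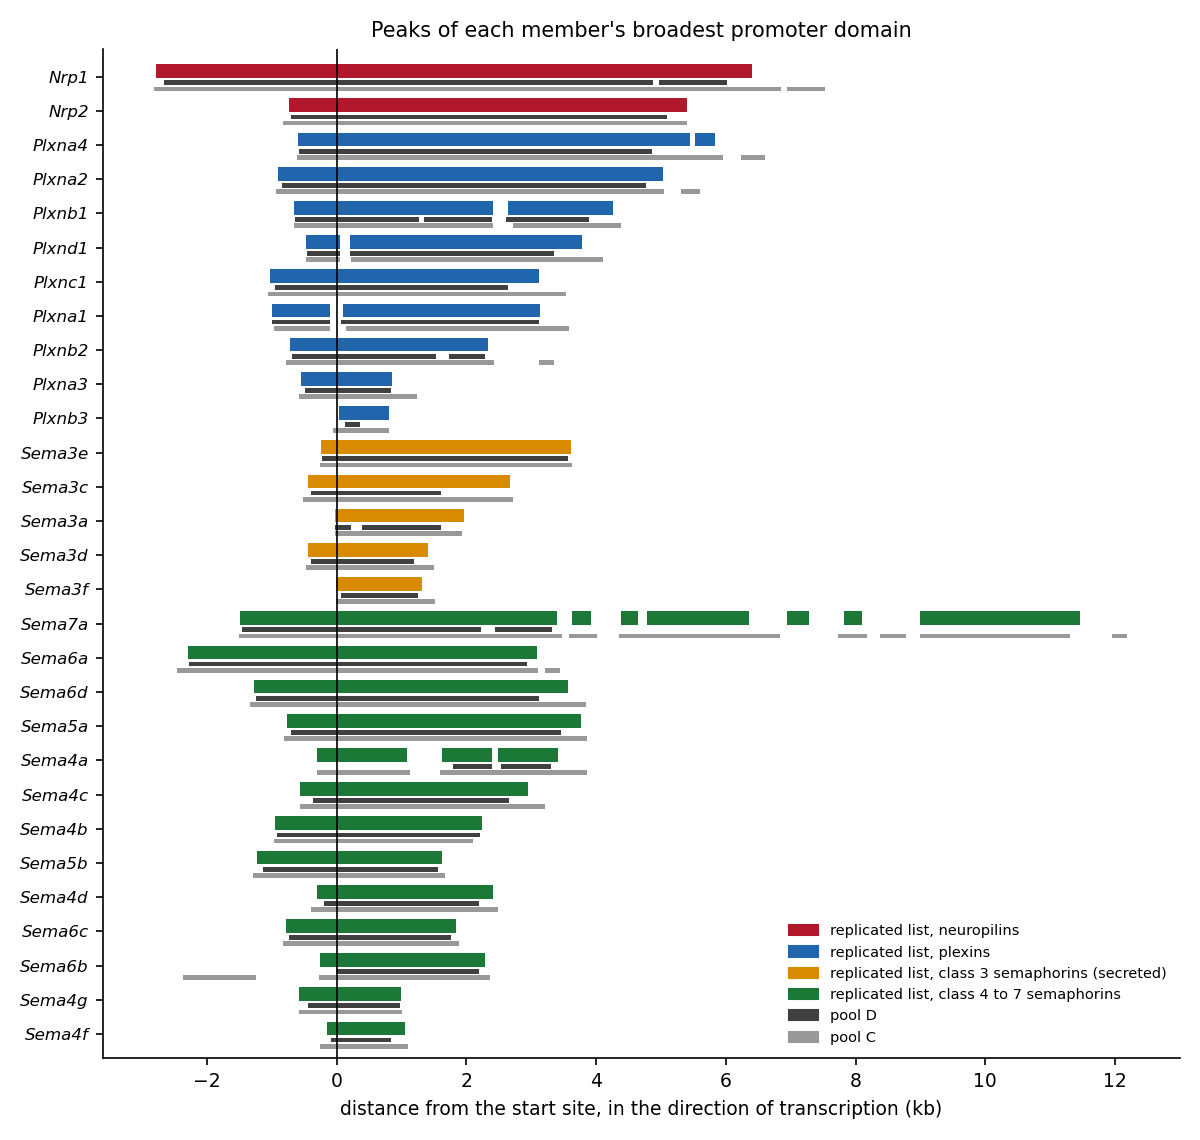
Peaks that make up the broadest promoter domain of each of the 29 marked members, as distance in kb from the 5′-most start site marked in the replicated list, in the direction of transcription (0 is the start site). Wide coloured bars are the replicated list and thin dark and light bars pool D and pool C; every member extends farther to the right of 0 than to the left, and at Sema7a the pool D domain ends after its first blocks.

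Between the pools, member domains were wider in pool C, as those of nearly all genes were. Of 29 members, 28 were wider in pool C, beside 96.8% of the 13907 genes marked in both pools, and the exception was Sema4b at 0.986 times the pool D breadth. The median ratio of pool C to pool D breadth was 1.20 for the members and 1.17 for all genes. Across the 29 members, log2 breadths in the pools correlated with a Pearson r of 0.893 and a Spearman coefficient of 0.910, and across all 13907 genes of 0.915 and 0.923. Genes measured in the same 2 lists are not independent replicates, so these are descriptions.

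Domains of 5 members were more than 1.5 times wider in pool C (17.2%), beside 12.7% of all genes marked in both pools. The ratio was 3.90 at Plxnb3, 2.86 at Sema7a, 2.76 at Sema4a, 2.15 at Sema6b and 1.62 at Sema3c. At Sema4a pool D held the same stretch as separate domains of 1509 and 684 bp, which pool C joined into 1. At Sema6b an upstream peak of 1058 bp in the replicated list, stronger than the promoter peak itself in that list, was present in all 3 lists. Its gap to the Sema6b promoter peak was 974 bp in pool C, 1022 bp in the replicated list and 1343 bp in pool D, so that only pool C joined it. At Sema3c a single peak was longer in pool C. Markers of several cell types also differed between the pools. The 3 microglial markers (Cx3cr1, P2ry12 and C1qa) had promoter peaks at 0 of 3 in pool D and 3 of 3 in pool C. Of the 4 markers of the oligodendrocyte lineage, pool D marked 3 and pool C marked 4, and all 3 with a peak in each pool were more than 1.5 times wider in pool C. Olig2 had 3520 bp (D) and 8591 bp (C), Pdgfra 998 and 5880 bp, and Mog no peak and 1066 bp. Also more than 1.5 times wider in pool C were 2 of 3 astrocyte markers, 1 of 3 endothelial, 1 of 5 neuronal and 1 of 4 hippocampal field markers. Of the 19 brain markers with a peak in each pool, 0 were more than 1.5 times wider in pool D. Only 5 of all 13907 genes marked in both pools were, so that count says little about the markers. The part of cell composition or depth in these member differences was not tested, and the sequencing depth of the pools is not known here.

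**Figure D4:**
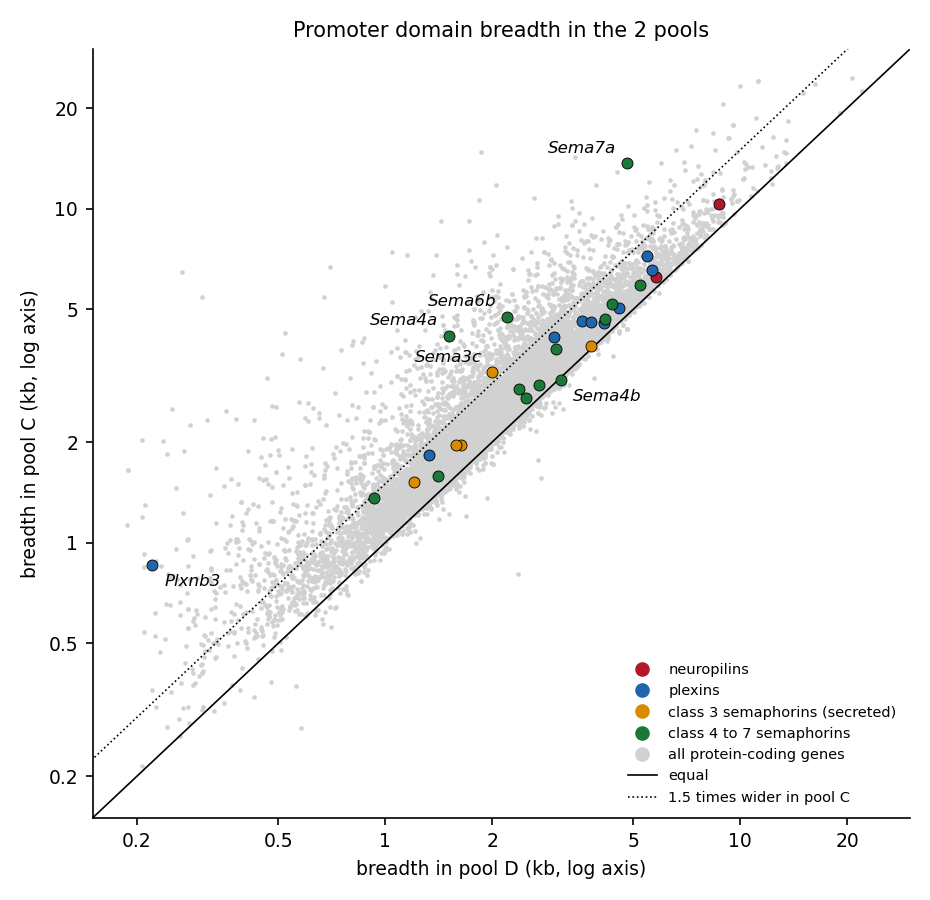
Breadth of the broadest promoter domain in pool D (horizontal) and pool C (vertical), both in kb on log axes, for the 29 marked members (coloured by class) and all genes marked in both pools (grey). The solid line is equal breadth and the dotted line 1.5 times wider in pool C; Plxnb3, Sema7a, Sema4a, Sema6b and Sema3c lie above the dotted line and Sema4b just below the solid one.

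Several members carried the mark at only some of their annotated start sites. Of 19 marked members with 2 or more coding start sites, 12 (63.2%) had at least 1 site more than 1 kb from any replicated peak, beside 41.2% of 9867 such genes. At Sema6a 3 of 7 sites were unmarked, at Sema3f 3 of 5 and at Sema6c 2 of 4. In Plxna1, Plxnb2, Plxnd1 and Sema4g, with 2 sites each, only the CpG-dense site was marked in the replicated list. At Plxna1 the ratio was 0.984 at the marked and 0.225 at the unmarked site, and at Plxnb2 it was 0.825 and 0.133. The CpG-poor Plxnb2 site was marked in pool C, by a domain of 1154 bp, and the nearest replicated peak lay 1057 bp from it.

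Separate marked promoters were found at 3 members in the replicated list (10.3% of the 29, not far from the 7.04% of all marked genes). These 3 were membrane-bound semaphorins, but pool C also held 2 promoter domains at the plexin gene Plxnb2. Sema6d has start sites 520327 bp apart on chromosome 2, with a domain of 2701 bp at the upstream one and 4845 bp at the downstream one. Both were present in each pool, at 2618 and 4364 bp in pool D and 2726 and 5179 bp in pool C. Their strongest peaks ranked close together, at percentiles 78.0 and 73.3 of signal. The fifth start site of Sema6d, farther downstream, had no peak within 1 kb.

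Sema4b has start sites 11600 bp apart on chromosome 7, with 1828 bp of mark at the upstream one and 3191 bp at the downstream one. These measured 1806 and 3119 bp in pool D and 1952 and 3075 bp in pool C. Both Sema4b sites are CpG-dense, with ratios of 0.622 and 0.749.

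The promoters of Sema6b are unlike each other in CpG density. They lie 6500 bp apart on chromosome 17, with 2556 bp at the upstream, CpG-dense site (ratio 0.819) and 1762 bp at the downstream, CpG-poor site (ratio 0.299). The downstream domain measured 702 bp for pool D and 1821 bp for pool C, with a −log10 q of 5.68 in the replicated list against 81.1 upstream. The 250 bases before each Sema6b start site are shown for this contrast, a choice made after the values were seen, with CpG in capitals.
Sema6b upstream promoter, chr17:56140344-56140593, minus strand: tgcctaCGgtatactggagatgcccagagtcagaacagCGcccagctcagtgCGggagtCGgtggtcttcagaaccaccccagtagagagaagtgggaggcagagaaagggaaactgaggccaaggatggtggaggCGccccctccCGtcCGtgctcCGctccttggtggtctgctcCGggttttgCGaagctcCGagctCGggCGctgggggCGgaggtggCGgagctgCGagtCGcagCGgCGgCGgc
Sema6b downstream promoter, chr17:56133844-56134093, minus strand: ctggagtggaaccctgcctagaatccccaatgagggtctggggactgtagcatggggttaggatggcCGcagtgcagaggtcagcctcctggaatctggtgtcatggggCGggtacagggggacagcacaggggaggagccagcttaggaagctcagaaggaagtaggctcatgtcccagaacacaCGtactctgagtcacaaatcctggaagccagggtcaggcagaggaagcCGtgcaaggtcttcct
The upstream window holds 20 CpG and the downstream window 4.

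The count of members with separate promoters depended on the list. Pool D alone gave 4, since Sema4a was split, and pool C alone gave 5, with a domain of 1154 bp at the inner start site of Plxnb2 and one of 248 bp at an inner start site of Sema4d.

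**Figure D5:**
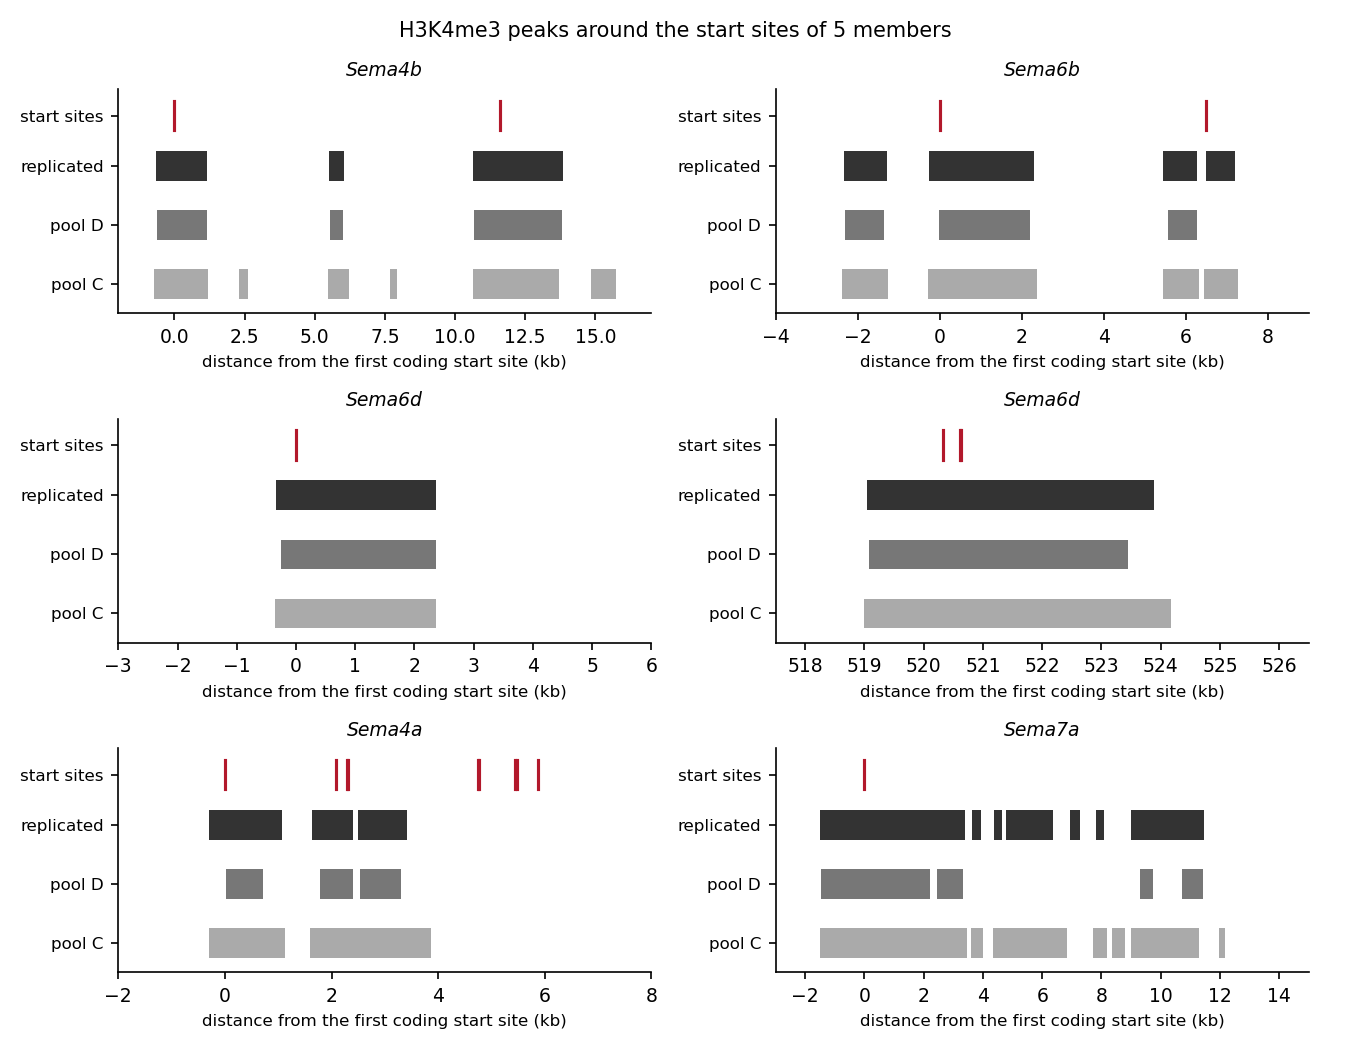
Peaks in the replicated list, pool D and pool C (rows of bars) around coding start sites (red ticks) of Sema4b, Sema6b, Sema6d (both promoters, in separate panels), Sema4a and Sema7a, as distance in kb from the first coding start site in the direction of transcription. Sema4b, Sema6b and Sema6d have a peak at start sites far apart in each list, Sema4a has a wider gap in pool D, and the peaks downstream of the Sema7a promoter are fewer in pool D.

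Peaks inside the genes but over 1 kb from their own coding start sites were found at 15 of 31 members (48.4%), beside 19.0% of all genes. Longer genes have more room for such peaks, and the part of gene length was not tested. There were 32 such peaks, of which 8 were joined to a promoter domain (6 of them in Sema7a) and 24 lay apart in 13 members. The 24 were mostly weak, with a median signal at percentile 23.5 of replicated peaks. The strongest lay in Plxnb2, at chr15:89172633-89174182, with a width of 1550 bp and a signal at percentile 63.5, where the strongest promoter peaks of marked genes had a median of 75.7. It was present in both pools, with 1376 bp for pool D and 1627 bp for pool C, and lay 1945 bp from the nearest annotated coding start site. Sema6a held 3 such peaks, the strongest at percentile 48.9, and Nrp2, Plxnc1 and Sema4d also held 3 each.

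Other genes of semaphorin signalling were marked about as often as the members. The list held 48 genes, and 43 (89.6%) were marked in the replicated list, 43 in pool D and 47 in pool C. Over all protein-coding genes the shares were 64.8%, 63.7% and 66.3%. The marked genes of the list had a median breadth of 3326 bp, and 8 reached 5 kb (18.6%, beside 6.94% of all marked genes). The broadest was Gsk3b, a kinase downstream of Sema3a, at 7171 bp (6797 bp for pool D and 7679 bp for pool C). It was followed by Crmp1, a collapsin response mediator, at 6349 bp and by the small GTPase gene Mras at 5891 bp. Next came Arhgef12, an exchange factor bound by B plexins, at 5557 bp and Arhgap35 at 5332 bp. The 5 genes without a replicated peak were Mst1r, Cd72, Timd2, Trem2 and Tyrobp. Mst1r is a receptor tyrosine kinase of the Met family, Cd72 and Timd2 are receptors of class 4 semaphorins on immune cells, and Trem2 and Tyrobp encode a microglial receptor complex with which Plxna1 can associate. In the list of pool C, but not in that of pool D, Mst1r had a peak of 424 bp, Cd72 of 186 bp, Trem2 of 548 bp and Tyrobp of 469 bp, while Timd2 had none in any list.

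Other guidance families gave similar values. All 22 ephrin and Eph receptor genes were marked, with a median breadth of 3306.5 bp and 7 domains of 5 kb or more (31.8%). Of 21 genes of the netrin, Slit and Robo system 20 were marked (95.2%), with a median of 3928 bp and 4 domains of 5 kb or more (20.0%). The 3519 bp and 20.7% of the semaphorin, plexin and neuropilin genes lay between or close to these. Over all genes 64.8% were marked, with a median of 2234 bp and 6.94% of marked genes at 5 kb or more. No test of the difference between families was made.

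The labelled tissue was checked against marker genes, in lists of 2 to 5 genes per cell type or group. Since 64.8% of all protein-coding genes were marked, full marking of lists this short says little about tissue identity. Promoter peaks were found in the replicated list at 5 of 5 neuronal markers, 4 of 4 markers of hippocampal fields, 3 of 3 of astrocytes, 4 of 4 of the oligodendrocyte lineage and 3 of 3 of endothelium. Among the field markers, Prox1, Zbtb20 and Neurod6 had domains of 15493, 14824 and 5947 bp. The remaining one, Wfs1, had 2113 bp, below the median of 2234 bp over all marked genes. Of the 3 microglial markers 1 was marked, of the 2 ependymal and choroid plexus markers 1 (Ttr had none), and of the 3 markers of other organs 0. The replicated list held 27063 peaks, the pool D list 24690 and the pool C list 34193.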

How the data were processed

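H3K4me3 ChIP-seq was measured in 4 libraries, 2 technical replicates each of pool D and pool C, and both libraries of a pool share 1 list. The authors deposited 4 peak lists on build mm10, per the labels: 1 per pool, 1 on both pools together and 1 of replicated peaks. A control alignment is named, but the peak caller is not given in the sources used here, nor are its parameters. Depth is unknown. The signal value and −log10 q of each peak are the authors' own as deposited and served only to rank or filter peaks within a list. The deposited display score was not used. The lists give no read counts, so no interval for counting error could be given.

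Peaks were set against GENCODE M21 with Python 3.11.15, sequences were read from GRCm38 with pysam 0.24.0, and correlations came from scipy 1.17.1. A peak marked a gene if it shared at least 1 bp with the 1 kb on either side of a coding start site. The domain code was checked on simulated peaks. No test was made, because 2 pools of 1 condition and 31 chosen genes give no replicate groups to compare. The members and all lists were chosen with earlier results of these data known. Named by rule were all unmarked members, the 10 broadest, those differing over 1.5 times between pools, those with several marked promoters, and those next to the 5 kb bound. Of the pathway list, the rule named the 5 broadest and every unmarked gene. Alternatives were each pool's list, the list on both pools, a stricter −log10 q of 5, promoter windows of 500 bp and 2.5 kb, gene 5′ ends only, an overlap of 200 bp, and either no gaps closed or gaps of up to 3 kb.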

Additional observations from a re-analysis of the deposited data

How the results depend on the processing

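Across the alternatives, 28 to 30 members were marked, beside 61.9% to 66.3% of all genes. The members' median breadth ran from 3024 to 4126 bp, and 5 to 8 members reached 5 kb. Of all marked genes, 4.07% reached 5 kb with no gaps closed (5 members) and 11.9% with gaps of 3 kb closed (6 members). The ratio of the members' median breadth to the median over all marked genes stayed between 1.47 and 1.72. The number of members with separate promoters, 3 in the report, was 4 to 5 in the single-pool lists, 5 with a window of 2.5 kb, 6 with no gaps closed and 0 with gene 5′ ends only, where each gene has 1 window. Breadth moved by over 1.5 times for 4 members with pool D alone and for 1 with pool C alone (Sema6b). It did so for Sema7a with the list on both pools or a −log10 q of at least 5, and for Sema4b (1828 bp) and Sema6d (2701 bp) with gene 5′ ends only. With no gaps closed it did so for Plxnb1 (3064 bp), Sema4a (1384 bp) and Sema7a (4891 bp), and with gaps of 3 kb closed for Sema6b (4636 bp). Windows of 500 bp or 2.5 kb and an overlap of 200 bp moved no member's breadth that far. In the replicated and combined lists breadth was identical for 27 of 29 members, the exceptions being Plxna2 (5944 and 6466 bp) and Sema7a. No paired analysis was possible because the lists give 1 value per pool and no groups were compared.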
